A study of Homo sapiens with 9 samples.

Results

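The 10 genes described here are FOS, FOSB, FOSL1, FOSL2, JUN, JUNB, JUND, ATF3, EGR1 and DUSP1, which encode subunits of the AP-1 transcription factor and proteins made at once after a cell is stimulated. They were chosen by name, and every probe set that the array annotation assigns to 1 of them was used. That gave 26 of the 54675 probe sets on the array and 10 of the 19775 genes with a probe set of their own. HT-29, an established human colon adenocarcinoma cell line, was cultured for 5 days with 0, 5 or 10 µM 5-Aza (5-aza-deoxycytidine, a cytosine analogue that blocks DNA methyltransferases once it is built into DNA). The 0 µM cultures received the DMSO vehicle. Each dose had 3 cultures, labelled as biological replicates, and the RNA of each was hybridised to 1 Affymetrix U133 Plus array. All cultures grew in medium with serum and were washed and scraped before RNA extraction. The line is a single tumour line with no untreated, vehicle-free group and no earlier time, so an early response to the drug was not measured.

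AP-1 is a dimer of basic leucine zipper (bZIP) proteins. FOS family proteins (FOS, FOSB, FOSL1, FOSL2) bind DNA only as partners of JUN family proteins (JUN, JUNB, JUND), whereas JUN proteins can also pair with each other or with ATF proteins. FOS, FOSB, JUN, JUNB, ATF3, EGR1 and DUSP1 are immediate early genes: serum, growth factors or stress switch them on within minutes through MAP kinases and factors that are already present, with no new protein synthesis needed. In colon epithelium AP-1 is best known as a nuclear end point of growth factor and stress signalling, and DUSP1, a phosphatase of the MAP kinases, is a brake on the same pathway.

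The promoters of the 4 genes that passed the test at 5 µM (FOSB, DUSP1, EGR1 and JUND) and of FOS, the nearest relative of FOSB, are printed because they show the sites through which this gene class is usually switched on. Each is the 250 bases before the annotated start, on the strand of the gene, from RefSeq (GRCh38.p14). Capitals mark the cyclic AMP response element core TGACG or its reverse complement, the CArG box bound by serum response factor, and the TATA box TATAAA. FOSB lies at chr19:45467746-45467995 on the plus strand, DUSP1 at chr5:172771196-172771445 on the minus strand, EGR1 at chr5:138465229-138465478 on the plus strand, JUND at chr19:18281623-18281872 on the minus strand and FOS at chr14:75278578-75278827 on the plus strand.
FOSB: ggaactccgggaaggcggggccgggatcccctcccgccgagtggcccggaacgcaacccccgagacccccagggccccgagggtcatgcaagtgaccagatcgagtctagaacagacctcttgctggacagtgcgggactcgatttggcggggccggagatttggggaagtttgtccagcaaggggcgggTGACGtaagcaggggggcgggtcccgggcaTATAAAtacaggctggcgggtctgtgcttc
DUSP1: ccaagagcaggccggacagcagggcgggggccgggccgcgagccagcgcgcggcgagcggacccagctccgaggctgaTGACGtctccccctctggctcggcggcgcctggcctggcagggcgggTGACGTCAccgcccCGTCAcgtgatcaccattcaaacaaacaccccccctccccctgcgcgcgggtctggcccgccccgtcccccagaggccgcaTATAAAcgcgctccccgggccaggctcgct
EGR1: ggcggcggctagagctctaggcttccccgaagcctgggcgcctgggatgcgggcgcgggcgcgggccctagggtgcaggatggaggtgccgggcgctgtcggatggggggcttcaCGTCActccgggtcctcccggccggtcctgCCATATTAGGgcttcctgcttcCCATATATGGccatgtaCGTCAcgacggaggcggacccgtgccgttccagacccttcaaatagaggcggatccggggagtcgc
JUND: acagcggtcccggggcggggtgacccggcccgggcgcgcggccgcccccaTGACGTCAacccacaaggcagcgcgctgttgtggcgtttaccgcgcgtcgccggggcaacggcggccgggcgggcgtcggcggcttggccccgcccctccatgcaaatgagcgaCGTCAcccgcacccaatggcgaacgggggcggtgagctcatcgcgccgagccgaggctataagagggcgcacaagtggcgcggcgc
FOS: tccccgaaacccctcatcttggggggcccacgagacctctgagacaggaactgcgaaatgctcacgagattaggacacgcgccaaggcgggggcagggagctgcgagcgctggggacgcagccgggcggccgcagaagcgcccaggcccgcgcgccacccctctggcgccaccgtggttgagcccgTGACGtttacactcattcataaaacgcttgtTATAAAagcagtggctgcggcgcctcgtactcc

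FOSB and FOS had a like layout in this window. FOSB held TGACG at 60 to 56 bases and TATAAA at 30 to 25 bases before its start, and FOS held them at 64 to 60 and 33 to 28 bases. DUSP1 held the full palindrome TGACGTCA at 125 to 118 bases and TATAAA at 30 to 25 bases. JUND held TGACGTCA at 200 to 193 bases and no TATAAA. EGR1 held a pair of CArG boxes at 105 to 96 and 83 to 74 bases. A promoter was found for 9 of the 10 genes, with a pair of start sites for ATF3, and FOSL1 had no entry. Searched on both strands, TGACG was present in 8 of the 9 genes, and in 21.2% of all 35116 RefSeq promoters cut to the same length. TGACGTCA, which contains TGACG, was present in 2 of the 9 and in 1.65% of all promoters. The CArG box was present in EGR1 and in 1.16% of all promoters. The AP-1 site TGANTCA was in 0 of the 9 and in 6.57% of all promoters, TATAAA in 5 of the 9 and in 10.7%, and the GC box GGGCGG in 7 of the 9 and in 42.6%. The number of CpG dinucleotides, the sites that DNA methyltransferases act on, was 19 in the FOSB window, 30 in DUSP1, 25 in EGR1, 40 in JUND and 25 in FOS, and the median of all promoters was 11. The ATF3 windows held 4 and 0. These are matches of letters, and no methylation or binding was measured.

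The arrays of the series stood in the following state. Signals are given on the log2 scale. A signal was read as detected when it reached the floor, the median of all probe sets of its array, which was 5.07 to 5.52. All 10 genes passed this filter, which asks for all 3 arrays of at least 1 dose. Replicates of a dose correlated at 0.966 to 0.989 over the brightest probe sets of the 11756 genes that passed the filter. The signal at the 3' end of the actin transcript over that at its 5' end, a sign of RNA integrity and labelling, was 1.91 to 2.29 log2 at 0 µM, 2.49 to 2.69 at 5 µM and 2.84 to 3.16 at 10 µM, so the doses did not overlap. The 5' probe set of the small-subunit ribosomal RNA was at 13.5 and 13.6 on 10 µM replicates 2 and 3 and 11.8 on replicate 1, against 12.0 to 12.6 on the 0 and 5 µM arrays. Of 10 colon epithelium markers 8 reached the floor and CDX1 and CDX2 were below it on every array, and the summed linear signal of the list was 86237 to 89603 at 0 µM, 64202 to 72617 at 5 µM and 58387 to 66451 at 10 µM. Its members did not move alike: against 0 µM 4 of the 8 passed downward and 1 upward in limma at each dose. The upward gene was CEACAM5, 3.19-fold higher at 5 µM and 1.85-fold higher at 10 µM. Of 6 fibroblast markers 2 reached the floor, with COL3A1 and PDGFRB below it on every array and sums of 268 to 362 at 0 µM, 1031 to 1092 at 5 µM and 608 to 740 at 10 µM. Of 4 endothelial markers PECAM1 reached the floor, at means of 6.14, 6.77 and 5.90 for 0, 5 and 10 µM with no difference past the test, and VWF, CDH5 and KDR were below it on every array. Of 4 leukocyte markers LYZ and CD14 reached the floor and PTPRC was below it on every array, and the summed signal was 12811 to 13651 at 0 µM, 8848 to 10046 at 5 µM and 10663 to 11736 at 10 µM. LYZ fell by 0.48 log2 at 5 µM against 0 µM. In the leukocyte list LYZ was by far the brighter of the genes that reached the floor, at 13.68 against 6.35 for CD14 at 0 µM. All cultures were of the HT-29 line, so these sums are signals of the listed genes and do not count cells of other types. A change in some of the HT-29 cells and a change in all of them cannot be told apart in these bulk samples. DNMT1, which copies methylation onto new DNA strands and is the enzyme trapped by the drug, averaged 8.61 ± 0.10 at 0 µM, 8.88 ± 0.09 at 5 µM and 9.27 ± 0.09 at 10 µM (SD, n = 3 each).

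In the 5 µM cultures FOSB and DUSP1 rose by more than 2-fold, EGR1 rose by less and JUND fell, all relative to 0 µM. FOSB was at least 3.36-fold higher, DUSP1 2.07-fold and EGR1 1.63-fold higher, and JUND fell by 0.49 on the log2 scale. The other 6 genes did not pass. A gene passed when its limma p, adjusted by Benjamini-Hochberg over the 11756 tested genes, did not exceed 0.05, and it was called when it also differed by more than 2-fold. Among all tested genes 20.2% passed upward and 13.3% downward, and 9.92% were called. Of the 10 genes 3 passed upward, 1 passed downward and 2 were called. The counts that passed lie near those shares, and the called count is about 1 gene above. Their median log2 change was 0.11, and that of all tested genes was 0.04.

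In the 10 µM cultures FOSB, DUSP1 and EGR1 passed upward relative to 0 µM and 0 genes passed downward, although 2 genes fell at an unadjusted p under 0.05 in limma. That split depended on the scaling: with equal array medians, which moved the median of all tested genes to -0.23, DUSP1 passed upward and FOS, FOSL2, JUNB and JUND passed downward, while FOSB and EGR1 did not pass. Among all tested genes 19.8% passed upward, 13.3% passed downward and 7.58% were called. DUSP1 was the only 1 of the 10 that was called, and it lay at the threshold with 2.00-fold. Between 10 µM and 5 µM only FOSB of the 10 genes passed: it was lower at 10 µM and was called. Of all tested genes 6.93% passed upward in that comparison, 8.92% passed downward and 2.35% were called. The median change of the 10 genes was 0.15 at 10 µM against 0 µM and -0.09 at 10 µM against 5 µM, and the medians over all tested genes were 0.05 and -0.01. The 5 µM and 10 µM comparisons with 0 µM share their control cultures.

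**Figure D1:**
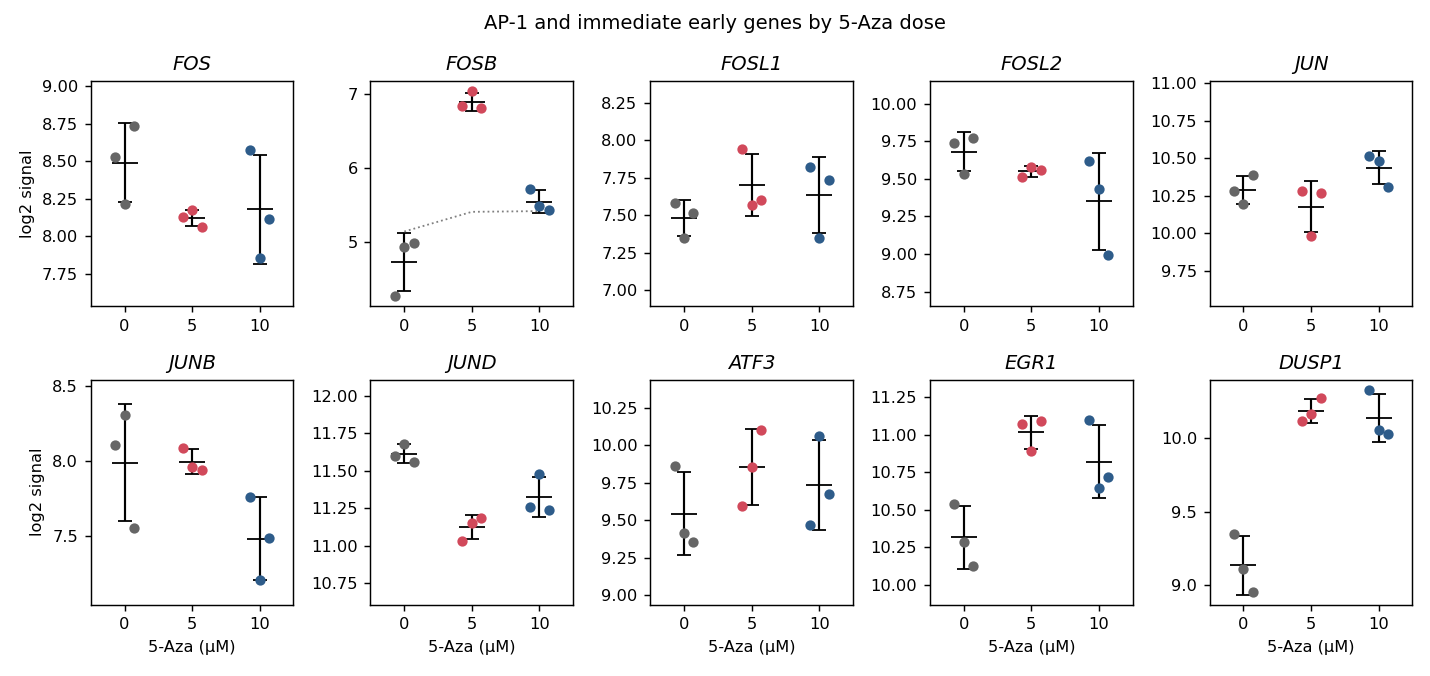
Log2 signal of the brightest probe set of each of the 10 genes (y axis, own scale per panel) against the 5-Aza dose in µM (x axis). Points are single cultures (replicates 1 to 3 from left to right), the horizontal bar and whiskers are the mean ± SD of 3 cultures, and the dotted line in the FOSB panel is the mean floor of each dose. FOSB stands above the other doses at 5 µM, and DUSP1 and EGR1 are above 0 µM at both 5 and 10 µM.

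FOSB encodes a FOS family subunit whose truncated form, deltaFosB, is known for its long life in stimulated neurons. Its signals were 4.28, 4.93 and 5.00 at 0 µM, 6.83, 7.04 and 6.81 at 5 µM and 5.72, 5.49 and 5.44 at 10 µM. All 3 arrays at 0 µM lay below the floor, all 3 at 5 µM lay above it and 1 of 3 at 10 µM lay below it, and no pair of doses overlapped. FOSB therefore had a level that could be measured at 5 µM and only a bound at 0 µM. The fitted difference of 5 µM over 0 µM was 2.16 ± 0.19 log2 (SE, limma adjusted p = 8.67e-05), and with the signals at 0 µM raised to the floor it was at least 3.36-fold. At 10 µM FOSB was 0.81 ± 0.19 above 0 µM (adjusted p = 0.0124), a difference of at least 1.32-fold, so it passed and was not called. The difference of 10 µM from 5 µM was -1.34 ± 0.19 (adjusted p = 0.00494), which is 2.54-fold lower at 10 µM. The order of the doses for FOSB was therefore 5 µM, 10 µM and 0 µM, and each neighbouring pair differed past the test. The step between 10 µM and 0 µM did not pass with quantile normalization (0.55, adjusted p = 0.0908), with equal array medians (0.54, adjusted p = 0.0690) or by the methods' t-test (adjusted p = 0.106).
The actin 3' to 5' difference moved with dose, and with it as a term in the fit FOSB was 1.88 higher at 5 µM than at 0 µM (adjusted p = 0.0258), 0.31 higher at 10 µM than at 0 µM (adjusted p = 0.945) and at -1.56 for 10 µM minus 5 µM (adjusted p = 0.125). With 10 µM replicates 2 and 3 left out, the 10 µM array that remained differed from 5 µM by -1.17 (adjusted p = 0.0593, with the lone array assumed to vary like the other groups).

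FOS is the founding member of the family, with a promoter layout like that of FOSB in the sequences above. Its signals were 8.52, 8.21 and 8.73 at 0 µM, 8.13, 8.17 and 8.06 at 5 µM and 8.57, 7.85 and 8.11 at 10 µM. The 5 µM cultures lay just below all 0 µM cultures, and the 10 µM cultures spread across both. The differences were -0.37 ± 0.19 at 5 µM against 0 µM (adjusted p = 0.175), -0.31 at 10 µM against 0 µM (adjusted p = 0.242) and 0.06 at 10 µM against 5 µM (adjusted p = 0.860), and none passed. With equal array medians FOS did pass downward against 0 µM, with -0.63 at 5 µM (limma adjusted p = 0.0150) and -0.59 at 10 µM (adjusted p = 0.0229).

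FOSL1 (Fra-1) and FOSL2 (Fra-2) are the FOS relatives without the strong activation domain of FOS. FOSL1 had 7.58, 7.35 and 7.51 at 0 µM, 7.94, 7.57 and 7.60 at 5 µM and 7.82, 7.35 and 7.74 at 10 µM. The groups overlapped, and its differences of 0.22 at 5 µM (adjusted p = 0.304) and of 0.15 at 10 µM (adjusted p = 0.469) from 0 µM did not pass. FOSL2 had 9.74, 9.54 and 9.78 at 0 µM, 9.51, 9.58 and 9.56 at 5 µM and 9.62, 9.44 and 8.99 at 10 µM on its brightest probe set, and its differences from 0 µM of -0.13 in the 5 µM cultures (adjusted p = 0.562) and of -0.33 in the 10 µM cultures (adjusted p = 0.133) did not pass either. FOSL2 has 5 probe sets, of which 2 did not reach the floor, and the remaining 3 disagreed at 10 µM. In a fit over the 21966 tested probe sets, 218880_at fell by 0.73 ± 0.19 at 10 µM against 0 µM (adjusted p = 0.0236), 225262_at differed by -0.33 without passing, and 228188_at by 0.21 without passing (adjusted p = 0.264). The signals of 218880_at lay near the floor, with 6.34, 6.08 and 5.79 at 0 µM. At 10 µM they were 5.62, 5.08 and 5.34, and 2 of these arrays were below the floor.

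Among the JUN family, JUND was the member that passed. JUND is the JUN protein that many resting cells hold at a steady level. Its signals were 11.60, 11.68 and 11.56 at 0 µM, 11.03, 11.15 and 11.19 at 5 µM and 11.26, 11.48 and 11.24 at 10 µM. Both treated groups lay below every 0 µM culture and did not overlap each other. JUND fell by 0.49 ± 0.10 log2 at 5 µM (adjusted p = 0.00676), and its difference of -0.29 at 10 µM did not pass (adjusted p = 0.0577). The difference of 10 µM from 5 µM, 0.20, did not pass (adjusted p = 0.206). A dimmer probe set, 203751_x_at, fell by 0.53 ± 0.15 in the 5 µM cultures (adjusted p = 0.0335) and by 0.60 ± 0.15 at 10 µM (adjusted p = 0.0203) in the fit over probe sets. Its treated signals lay near the floor, with 5.80, 5.22 and 5.70 at 5 µM (1 array below it) and 5.52, 5.46 and 5.52 at 10 µM. The probe set 214326_x_at was below the floor on all 3 arrays at 10 µM. It was at least 1.40-fold lower there than at 0 µM, without passing (adjusted p = 0.0634). With the mean of all JUND probe sets, dim ones included, the difference at 5 µM was -0.074 and did not pass (adjusted p = 0.875). With the actin term it was -0.46 and did not pass (adjusted p = 0.259). JUND has 4 probe sets and 1 of them, 229117_s_at, stayed below the floor.

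JUN, the subunit with the strong activation domain and the target of JUN N-terminal kinase, depended on the probe set. The brightest, 201464_x_at, had 10.28, 10.19 and 10.38 at 0 µM, 10.28, 9.98 and 10.27 at 5 µM and 10.52, 10.48 and 10.31 at 10 µM. Its differences of -0.11 at 5 µM (adjusted p = 0.504) and of 0.15 at 10 µM (adjusted p = 0.352) from 0 µM did not pass. In 201466_s_at the signals were 8.66, 8.37 and 8.33 at 0 µM, 8.20, 8.23 and 8.38 at 5 µM and 8.92, 9.19 and 8.89 at 10 µM, so all 10 µM cultures lay above all others. This probe set rose by 0.55 ± 0.13 at 10 µM against 0 µM (adjusted p = 0.0173) and was 0.73 ± 0.13 higher at 10 µM than at 5 µM (adjusted p = 0.0142). The other pair, 201465_s_at and 213281_at, were 0.70 and 0.46 higher at 10 µM than at 0 µM without passing (adjusted p = 0.0562 and 0.225). All 4 JUN probe sets had a positive difference at 10 µM from both other doses, with 1 of 4 passing. They read the same RNA samples, so their shared sign is not independent evidence. Against 0 µM, the mean of the JUN probe sets was 0.47 higher at 10 µM and passed (limma adjusted p = 0.0321). With equal array medians the brightest was at -0.13 in that comparison and did not pass (limma adjusted p = 0.518). JUNB, a JUN protein with weaker activation that can oppose JUN, had 8.11, 8.30 and 7.56 at 0 µM, 8.09, 7.96 and 7.94 at 5 µM and 7.76, 7.21 and 7.49 at 10 µM. Its lowest 0 µM culture, replicate 3, lay within the range of the 10 µM cultures, and its differences from 0 µM of 0.01 at 5 µM (adjusted p = 0.984) and of -0.51 at 10 µM (adjusted p = 0.0871) did not pass. Without that replicate the 10 µM difference of JUNB was -0.72 and passed (limma adjusted p = 0.0187).

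ATF3 is a stress-induced bZIP protein that pairs with JUN proteins. Its brightest probe set had 9.86, 9.42 and 9.35 at 0 µM, 9.60, 9.86 and 10.10 at 5 µM and 9.47, 10.06 and 9.67 at 10 µM. The doses overlapped, and the differences from 0 µM were 0.31 at 5 µM (adjusted p = 0.275) and of 0.19 at 10 µM (adjusted p = 0.494). A second probe set, 1554980_a_at, had differences of -0.05 and -0.33 with adjusted p = 0.858 and 0.176, so the probe sets did not share a direction.

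EGR1 encodes a zinc finger transcription factor, outside the bZIP family, that serum response factor switches on through CArG boxes. Its signals were 10.54, 10.28 and 10.12 at 0 µM, 11.07, 10.89 and 11.09 at 5 µM and 11.10, 10.65 and 10.71 at 10 µM. Every treated culture lay above every 0 µM culture. EGR1 rose by 0.70 ± 0.15 log2 at 5 µM (adjusted p = 0.00868), which is 1.63-fold, and by 0.51 ± 0.15 at 10 µM (adjusted p = 0.0348), which is 1.42-fold. The difference of 10 µM from 5 µM was -0.20 and did not pass (adjusted p = 0.413). All 3 probe sets had positive differences from 0 µM at both doses: 201693_s_at had 0.56 at 5 µM (adjusted p = 0.0568) and of 0.22 at 10 µM, and 227404_s_at had 0.34 at 5 µM (adjusted p = 0.333) and rose by 0.82 ± 0.24 at 10 µM (adjusted p = 0.0332). The rise at 10 µM did not pass when any of 6 of the 9 arrays was left out, with log2 values of 0.37 to 0.56. Among these, leaving out 0 µM replicate 3 gave 0.41 (adjusted p = 0.102).

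DUSP1 (MKP-1) removes phosphate from p38, JNK and ERK in the nucleus and is itself an immediate early gene. Its signals were 9.35, 9.11 and 8.95 at 0 µM, 10.12, 10.16 and 10.27 at 5 µM and 10.33, 10.05 and 10.03 at 10 µM. All treated cultures, from 10.03 up, lay above the highest 0 µM culture at 9.35, and the treated groups overlapped each other. DUSP1 rose by 1.05 ± 0.13 log2 at 5 µM (adjusted p = 0.000554) and by 1.00 ± 0.13 at 10 µM (adjusted p = 0.00105). The difference of 10 µM from 5 µM was -0.05 (adjusted p = 0.827) and did not pass. Of the other probe sets, 201044_x_at stayed below the floor on every array, and 226578_s_at, which reached the floor on 2 of 3 arrays at 0 µM, had differences of 0.34 at 5 µM (adjusted p = 0.545) and of 0.60 at 10 µM (adjusted p = 0.255). With the actin term DUSP1 was 1.40 higher at 5 µM (adjusted p = 0.0126) and of 1.63 higher at 10 µM (adjusted p = 0.203).

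**Figure D2:**
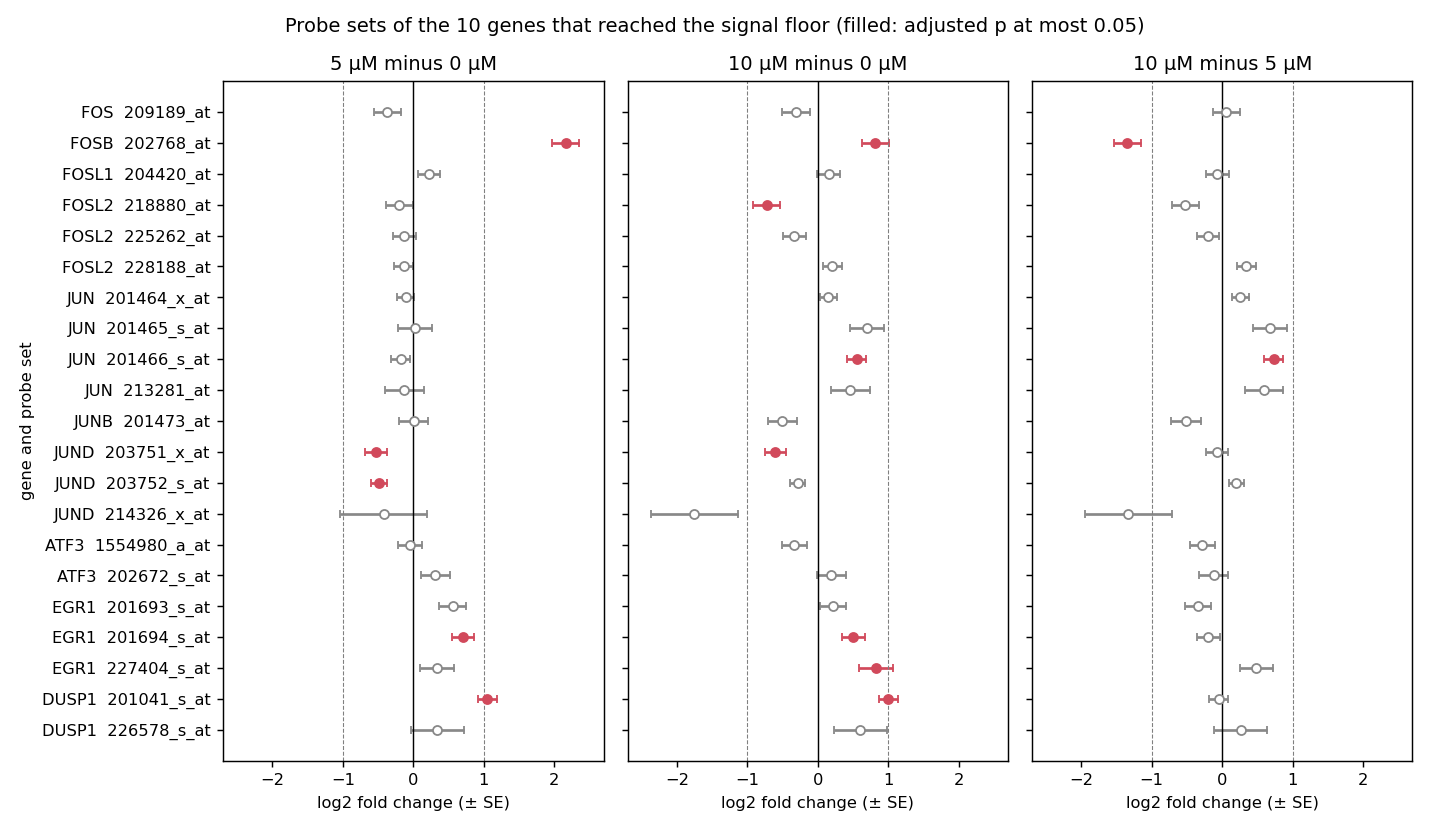
Log2 fold change ± SE (x axis) of the 21 probe sets of the 10 genes that reached the floor (y axis), for 5 µM minus 0 µM, 10 µM minus 0 µM and 10 µM minus 5 µM. Filled points have a limma adjusted p of at most 0.05 over all tested probe sets and dashed lines mark 2-fold. The JUN probe sets lie on the positive side in both comparisons of 10 µM, and the FOSL2 probe sets lie on either side of 0 at 10 µM.

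Over probe sets, 21 of the 26 reached the floor and 5 did not. At 5 µM against 0 µM 5 of the 21 passed, against 25.6% of all tested probe sets. At 10 µM against 0 µM 7 of the 21 passed, against 27.7% of all, and at 10 µM against 5 µM 2 of the 21 passed, against 10.5% of all. FOSL1, FOS, FOSB and JUNB have 1 probe set each, so their values have no second reading on the array.

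By RMS difference of centred log2 values over the 9 arrays, the genes most like FOSB were MAP1LC3A at 0.185, which encodes the autophagosome protein LC3A, and ACVR1C at 0.201, which encodes the activin receptor ALK7. MAP1LC3A was 5.45-fold higher at 5 µM than at 0 µM and 1.93-fold higher at 10 µM. ACVR1C, below the floor at 0 µM on all arrays, gained at least 2.43-fold at 5 µM and at least 1.28-fold at 10 µM. The genes most like DUSP1 were MCM10 at 0.0872, which encodes a replication initiation factor, and RORA at 0.107, which encodes a nuclear receptor. RORA was 2.02-fold higher at 5 µM and 2.05-fold higher at 10 µM, and MCM10, below the floor on all 0 µM arrays, was at least 1.76-fold and at least 1.68-fold higher.

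The companion lists hold genes that act with, upstream or downstream of the 10. The list of serum response factor and its ternary complex partners (6 genes, all tested) had 0 genes past the limma test in each comparison, with 0, 2 and 2 at an unadjusted p under 0.05 for 5 µM and for 10 µM against 0 µM and for 10 µM against 5 µM, and 0, 1 and 0 by the methods' t-test after adjustment. Its members with the smallest p at 10 µM against 0 µM were ELK3 at -0.47 (adjusted p = 0.0570) and ELK1 at -0.89 (adjusted p = 0.0597). At 5 µM against 0 µM they were ELK3 at -0.32 (adjusted p = 0.176) and ELK4 at 0.15 (adjusted p = 0.215), and at 10 µM against 5 µM MRTFB at 0.23 (adjusted p = 0.107) and ELK1 at -0.80 (adjusted p = 0.121). Of 21 MAP kinase cascade genes 3 passed upward and 4 downward at 5 µM, and likewise 3 and 4 at 10 µM, with list medians of -0.02 and -0.15. As shares that is 14.3% upward and 19.0% downward at each dose. All tested genes had 20.2% and 13.3% at 5 µM and 19.8% and 13.3% at 10 µM. The 1 called gene of the cascade was MAPK10, the JNK isoform JNK3, which was 2.08-fold higher at 5 µM and 2.32-fold higher at 10 µM than at 0 µM. At 10 µM against 5 µM 2 cascade genes passed, both downward: MAPK13 (p38 delta) fell by 0.53 log2 and MAP3K5 (ASK1) by 0.46. That is 9.52% of the list, against 8.92% downward of all tested genes. Of 10 other dual-specificity phosphatases 3 passed upward and 0 downward at 5 µM, and 3 upward and 1 downward at 10 µM. Their shares were 30% and 0% at 5 µM and 30% and 10% at 10 µM, against the all-gene shares just given for those doses. DUSP5, a nuclear ERK phosphatase, had 9.18, 9.32 and 9.21 at 0 µM, 10.47, 10.59 and 10.78 at 5 µM and 9.83, 9.88 and 9.79 at 10 µM. It was 2.60-fold higher at 5 µM (adjusted p = 4.19e-05) and 1.52-fold higher at 10 µM (adjusted p = 0.00373) than at 0 µM, and fell by 0.78 log2 at 10 µM against 5 µM (adjusted p = 0.00429). DUSP10, which acts on p38 and JNK, was 2.07-fold higher at 5 µM and 1.72-fold higher at 10 µM than at 0 µM. DUSP8 was 1.41-fold higher at 5 µM (limma adjusted p = 0.0427) and 1.62-fold higher at 10 µM than at 0 µM (adjusted p = 0.0116). DUSP3 differed by -0.23 between 10 µM and 5 µM without passing (adjusted p = 0.112).

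Of the other bZIP partners of AP-1, 20 genes were tested: 5 passed upward and 4 downward at 5 µM, and 4 upward and 3 downward at 10 µM. Upward and downward shares were 25% and 20% at 5 µM, against 20.2% and 13.3% of all tested genes. The 10 µM shares were 20% and 15%, against 19.8% and 13.3%. ATF5 was 5.29-fold higher at 5 µM and 4.76-fold higher at 10 µM, with no overlap with 0 µM, and BATF, which reached the floor on 1 of 3 arrays at 0 µM, was 3.03-fold and 2.60-fold higher by its measured signals. Of the 20, 0 passed upward and 2 downward at 10 µM against 5 µM: CEBPA fell by 0.84 log2 (adjusted p = 0.0180) and CREB3 by 0.35 (adjusted p = 0.0408). The downward share was 10%, against 8.92% of all tested genes. DDIT3 (CHOP), a bZIP protein of the stress response to misfolded protein, was 2.10-fold higher at 5 µM and 1.68-fold higher at 10 µM than at 0 µM. ATF5 and DDIT3 are known targets of the translational stress pathway.

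Other immediate early genes numbered 31 tested. At 5 µM against 0 µM 12 passed upward and 3 downward with a median of 0.23, at 10 µM 6 passed upward and 4 downward with a median of 0.02, and at 10 µM against 5 µM 3 passed upward and 10 downward with a median of -0.31. The shares at 5 µM were 38.7% upward and 9.68% downward, against 20.2% and 13.3% of all tested genes, and the downward share at 10 µM against 5 µM was 32.3%, against 8.92% of all. At 10 µM against 0 µM the shares were 19.4% upward and 12.9% downward, against 19.8% and 13.3% of all. NFKBIA, the inhibitor of NF-kappaB, had 9.56, 9.59 and 9.67 at 0 µM, 10.58, 10.55 and 10.89 at 5 µM and 9.59, 9.67 and 9.62 at 10 µM. It was 2.10-fold higher at 5 µM than at 0 µM (adjusted p = 0.00021) and fell by 1.05 log2 at 10 µM against 5 µM (adjusted p = 0.00218), with 0 and 10 µM overlapping. GADD45B, a stress gene acting on MAP kinase signalling, was 2.93-fold higher at 5 µM than at 0 µM (adjusted p = 0.00493) and 2.58-fold lower at 10 µM than at 5 µM (adjusted p = 0.0199). The NF-kappaB target TNFAIP3 was instead 3.00-fold higher at 5 µM and 2.95-fold higher at 10 µM, and the chemokine CXCL2 was 2.31-fold and 3.59-fold higher. CSRNP1, a nuclear protein induced by AXIN1, was 2.28-fold higher at 5 µM (adjusted p = 0.00358) and 1.68-fold higher at 10 µM (limma adjusted p = 0.0281). Against 0 µM, ARC rose by 0.49 log2 at 5 µM (limma adjusted p = 0.0179) and fell by 0.55 at 10 µM (adjusted p = 0.0122). ARC was 2.05-fold lower at 10 µM than at 5 µM.

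Of 24 tested genes on the list of known AP-1 targets, 10 passed upward and 4 downward at 5 µM, 7 upward and 5 downward at 10 µM, and 2 upward and 8 downward at 10 µM against 5 µM. The upward shares were 41.7% at 5 µM and 29.2% at 10 µM, against 20.2% and 19.8% of all tested genes, and the downward share at 10 µM against 5 µM was 33.3%, against 8.92% of all. Downward shares against 0 µM were 16.7% at 5 µM and 20.8% at 10 µM, against 13.3% of all at each dose. MMP13 (collagenase 3) had 1.49, 3.50 and 3.31 at 0 µM, 7.96, 8.07 and 7.83 at 5 µM and 5.53, 6.70 and 5.93 at 10 µM. All 0 µM arrays were below the floor, and MMP13 was at least 7.01-fold higher at 5 µM (adjusted p = 0.000142) and at least 1.88-fold higher at 10 µM (adjusted p = 0.0021). MMP13 was 3.73-fold lower at 10 µM than at 5 µM (adjusted p = 0.0364). MMP1 (interstitial collagenase) had -0.74, 2.72 and 1.93 at 0 µM, 6.38, 6.13 and 6.57 at 5 µM and 5.97, 5.98 and 5.89 at 10 µM, and gained at least 2.32-fold at 5 µM and at least 1.74-fold at 10 µM. SPRR1B, a cornified envelope gene, reached the floor on 2 of 3 arrays at 0 µM, and by its measured signals it was 9.92-fold higher at 5 µM and 3.63-fold higher at 10 µM. VIM, the mesenchymal intermediate filament, was at least 1.55-fold and at least 1.12-fold higher, and CXCL8 was 3.67-fold and 3.74-fold higher. S100A2 was 4.14-fold higher at 5 µM than at 0 µM and 4.94-fold lower at 10 µM than at 5 µM. KRT7 passed upward at 5 µM with 1.72-fold and was 2.28-fold lower at 10 µM than at 0 µM. The fibroblast-list genes that reached the floor were also higher in this single cell line, with COL3A1 and PDGFRB below the floor. COL1A1 was 6.42-fold higher at 5 µM and 3.95-fold higher at 10 µM, and LUM 2.97-fold and 1.60-fold. A link between these genes and the collagenase and VIM values was not tested. These lists were assembled with results of these data known, so their counts and shares are a description, and the part that FOSB or any other of the 10 genes had in them was not tested.

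**Figure D3:**
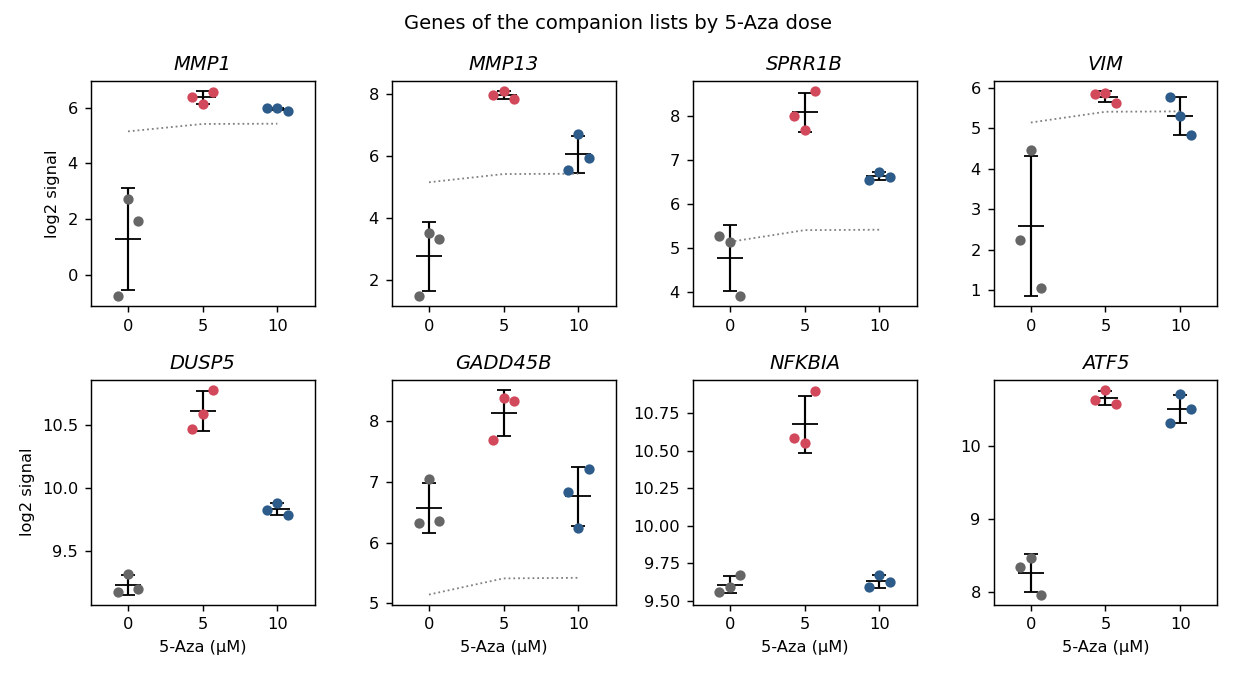
Log2 signal (y axis, own scale per panel) against the 5-Aza dose in µM (x axis) for 8 companion genes, with points, means ± SD and the dotted floor drawn as in the plot of the 10 genes by dose. MMP13, SPRR1B, DUSP5, GADD45B and NFKBIA are highest at 5 µM, as FOSB is, whereas ATF5 is high at both doses. The 8 genes are a selection, and genes not drawn go both ways. S100A2 is highest at 5 µM, and TNFAIP3, CXCL2 and CXCL8 are high at both doses.

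**Figure D4:**
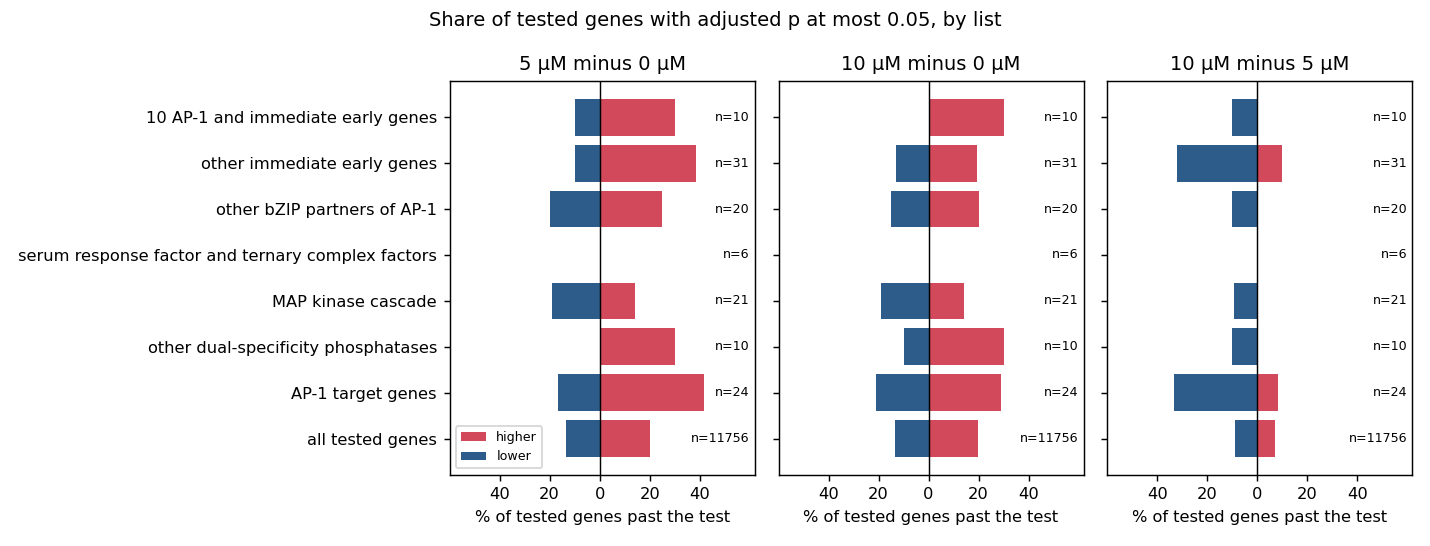
Percent of tested genes with a limma adjusted p of at most 0.05 (x axis; higher in the first named dose to the right, lower to the left) in the 10 genes, 6 companion lists and all 11756 tested genes (y axis), for 5 µM minus 0 µM, 10 µM minus 0 µM and 10 µM minus 5 µM. The number tested stands at the right of each bar, and the downward share at 10 µM against 5 µM reaches 32.3% in the other immediate early genes and 33.3% in the AP-1 targets, against 8.92% of all tested genes.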

How the data were processed

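The deposited values are log2 signals of 54675 probe sets on 9 arrays, as made by the authors. The submitters' notes name RMA and affy 1.14.2, yet the values have the form of MAS 5.0 signals: log2 of multiples of 0.1, scaled by 1 factor per array and not quantile normalized. Low signals are therefore noisy. The 6 probe sets with a missing value were left out. Genes were named from the platform table and RefSeq, and the probe set that was brightest on average stood for each gene. Genes that reached the array median on all 3 arrays of at least 1 dose went into a single two-sided limma fit over the 9 arrays (lmFit, eBayes, version 3.58.1 under R 4.3.3), a procedure tested on simulated data first. Tables were made with Python 3.11.15. A gene below the floor on all arrays of a dose has only a bound, for which each lower value was raised to the median of its array. P-values measure the spread between cultures labelled as biological replicates.

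All probe sets of the 10 genes are described. Of each companion list, up to 4 called genes per comparison with the largest change are named (otherwise the 2 with the smallest p), with the 2 genes most like each called member and DNMT1. The members and the lists were chosen with earlier results of these data known. The number of arrays limits the precision.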

Additional observations from a re-analysis of the deposited data

How the results depend on the processing

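Each result was recomputed under other filters, probe set rules, normalizations and tests, and with each array left out. FOSB passed the test at 5 µM against 0 µM in all 23 settings (1.75 to 2.29 log2), and DUSP1 in 22 of 23 (0.78 to 1.40). At 10 µM against 0 µM EGR1 passed in 11 of 23 settings. The called count at 5 µM against 0 µM, 2, was 1 with the mean of all probe sets of a gene and with equal array medians, and 4 with no fold threshold. It was 1 to 2 when 1 array was left out, and the 1 came without 0 µM replicate 3, where DUSP1 was at 0.96. The count past the test at 5 µM, 4, was 1 with the mean of probe sets, which takes in dim ones. It was 5 with equal array medians, where FOS (-0.63) also passed downward. The called count at 10 µM against 0 µM, 1, was 0 with the mean of probe sets, quantile normalization, equal array medians or the actin 3' to 5' term, 3 with no fold threshold, and 0 to 1 with 1 array left out (0 without 0 µM replicate 2, 0 µM replicate 3 or 10 µM replicate 1). The count past the test, 3 upward, was 1 by the methods' t-test (DUSP1) and 0 with the actin term. With the mean of probe sets the count was 2, and its members changed. FOSB and JUN (0.47, limma adjusted p = 0.0321) passed upward, and DUSP1 (0.37) and EGR1 (0.52) did not pass. The count was 5 with equal array medians, with DUSP1 upward and FOS (-0.59), FOSL2 (-0.61), JUNB (-0.78) and JUND (-0.56) downward, and FOSB and EGR1 not past the test. With quantile normalization DUSP1 and EGR1 passed upward, JUNB (-0.62) passed downward and FOSB did not pass. The counts at 10 µM against 5 µM, 1 each, were 0 with the actin term and with 10 µM replicates 2 and 3 left out, and the count past the test was 2 with the mean of probe sets (FOSB and JUN). The actin difference follows the dose, so that term and the groups can hardly be told apart. Equal array medians shifted the median of all genes to -0.22 at 5 µM and -0.23 at 10 µM against 0 µM. With them FOSL1 turned to -0.044 and JUNB to -0.26 at 5 µM, and FOSL1 to -0.12, JUN to -0.13 and ATF3 to -0.085 at 10 µM, all against 0 µM. Quantile normalization turned JUNB (201473_at) to -0.11 and the JUN probe set 201465_s_at to -0.14 at 5 µM. With the actin term FOSL2 turned to 0.18 at 5 µM and to 0.22 at 10 µM and JUNB to 0.49 at 10 µM, all against 0 µM, and at 10 µM against 5 µM FOSL1 turned to 0.036, FOSL2 to 0.042, EGR1 to 0.15 and DUSP1 to 0.23. With 10 µM replicates 2 and 3 left out, FOS turned to 0.082 and ATF3 to -0.077 against 0 µM, and FOSL1 to 0.12, FOSL2 to 0.070, EGR1 to 0.084 and DUSP1 to 0.14 against 5 µM. Without _x_at and _s_at probe sets ATF3 turned to -0.050 at 5 µM and -0.33 at 10 µM. The mean of probe sets turned FOSL2 to 0.036 and JUND to -0.40 at 10 µM against 5 µM. With 1 array left out, JUNB ranged from -0.21 to 0.16 at 5 µM against 0 µM, and at 10 µM against 5 µM FOS ranged from -0.14 to 0.22, FOSL1 from -0.16 to 0.0753, ATF3 from -0.28 to 0.016 and DUSP1 from -0.14 to 0.00583. None of the values that turned had passed the test. The cause was not tested. No pairing of the cultures by replicate number was seen. Deviations from the dose means correlated at -0.09 to 0.18 between same-numbered cultures, over 0.1 in 2 of 9 pairs. Between differently numbered cultures of different doses they correlated at -0.25 to 0.23. With the replicate number as a block 2, 1 and 1 members were called, the same counts as without it.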
